A study of Mus musculus with 8 samples.

Results

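The 42 genes examined here encode proteins of DNA replication and of S phase, measured by array in mouse regulatory T cells (Tregs), a CD4 T cell type defined by FoxP3 that keeps other immune cells in check. They were chosen by name, with earlier results of these data known. Each was read from a probe set that the array annotation assigns to that gene alone. Where there were several, the one of highest mean level across the 8 arrays was used. All 42 were found among the 19937 genes measured, and 2 of them, Pcna and Tk1, had more than 1 such set. FoxP3+ Tregs were sorted from Bcl6-/- (KO) and wild-type (WT) mice, and cells of both genotypes were stimulated with anti-CD3 and anti-CD28 for 16 h before RNA extraction, so no unstimulated group was analysed here. Each genotype had 2 numbered preparations, KO 1 and KO 2 or WT 1 and WT 2, and each preparation gave 2 arrays named A and B, which makes 4 arrays per genotype. Age and strain are not stated, nor is it stated whether numbers and letters stand for mice, cultures or extracts. The p-values below therefore rest on the spread between these arrays alone, and part or all of it may be technical. In such bulk RNA, more cells in cycle and more RNA per cycling cell cannot be told apart.

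A cell copies its genome once per division. In G1 the origin recognition complex, with Cdc6 and Cdt1, loads the Mcm helicase onto origins. At the start of S phase Cdc45 and the GINS complex turn it into an active helicase, primase and the polymerases copy the strands, and the sliding clamp Pcna holds the polymerases on DNA. E2F transcription factors switch on many of these genes once cyclins and their kinases, cyclin E among them, have inactivated the retinoblastoma protein. T cells stimulated through their antigen receptor bring up the set as they enter the cycle.

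The KO 1 arrays stood apart from all others. Over all probe sets they correlated at 0.935 to 0.956 with the KO 2 arrays and at 0.892 to 0.966 with the WT arrays, while KO 2 and WT arrays correlated at 0.979 to 0.989. The SD of the log2 values was 1.87 and 1.84 in the KO 1 arrays, 1.65 and 1.61 in the KO 2 arrays and 1.56 to 1.70 in the WT arrays. Among the WT arrays, 1A was closer to 2B (0.994) than to 1B of its own preparation (0.968). Outside their own preparation, the KO 1 arrays were closest to WT 1B, at 0.954 for KO 1A and 0.966 for KO 1B. Bcl6 was not lower in the KO-labelled arrays, at 8.51 to 9.0046 against 7.86 to 8.36 in the WT arrays (0.59 log2, limma adjusted p = 0.701), which does not bear out the label; which part of the gene was deleted and where the probes lie was not used here. Eif2s3y, Kdm5d and Uty are Y-linked and mark male cells. Their mean log2 level was 4.62 to 4.80 in KO-labelled arrays against 6.95 to 8.30 in WT arrays. Sex and genotype therefore cannot be told apart in any KO minus WT difference. The 7 measured Treg and CD4 T cell markers were at 10.18 to 12.13 in KO-labelled and 8.96 to 12.09 in WT arrays, and the log2 of their summed linear levels was 13.71 to 14.26 against 13.08 to 13.74. The same sum was 8.91 to 9.19 against 8.77 to 9.11 for 5 B cell markers, 8.22 to 8.60 against 8.40 to 8.81 for 2 CD8 T cell markers and 8.41 to 8.68 against 8.43 to 8.70 for 5 macrophage and monocyte markers. It was 6.35 to 6.63 against 6.58 to 6.73 for 3 NK cell markers and 8.19 to 8.64 against 8.28 to 8.65 for 4 dendritic cell markers. Alas2, the 1 erythroid marker measured, was at 6.37 to 6.74 against 6.02 to 6.39, a difference of 0.32 log2. The part of these features in the results was not tested.

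In each of the 42 replication genes the KO-labelled mean exceeded the WT mean, and most of the excess lay in KO 1. The median gene differed by 0.84 log2, with a range of 0.09 for E2f1 to 1.72 for Rrm2, while the median over all genes tested was -0.06 and 43.2% of them lay above 0. The SD of the array values was widest in the KO 1 arrays. With it as a covariate, the median was 0.23 and 41 of the 42 were above 0. In that fit 13 of the 42 passed over all genes, where 2488 of all 19937 genes passed in either direction. The labelled preparation was a random block there, with an estimated correlation of -0.37, so these p-values may be too small. Taken by preparation, the median gene lay 1.41 over the WT mean in KO 1 (all genes, -0.13) and 0.26 over it in KO 2 (all genes, 0.02). A difference of at least 2-fold over the WT mean was reached by 32 of the 42 in KO 1, against 10.6% of all genes, and by 0 in KO 2, against 0.351%. In the limma fit, with p adjusted by Benjamini-Hochberg over 19937 genes, 0 of the 42 passed in either direction, where 0.12% of all genes passed as higher and 0.015% as lower. An unadjusted p under 0.05 was reached by 27 of the 42 in the higher direction and by 0 in the lower, against 5.65% and 0.542% of all genes. All 4 KO-labelled arrays lay over all 4 WT arrays in 20 of the 42, against 6.67% of all genes, and below them in 0, against 2.11%.

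**Figure D1:**
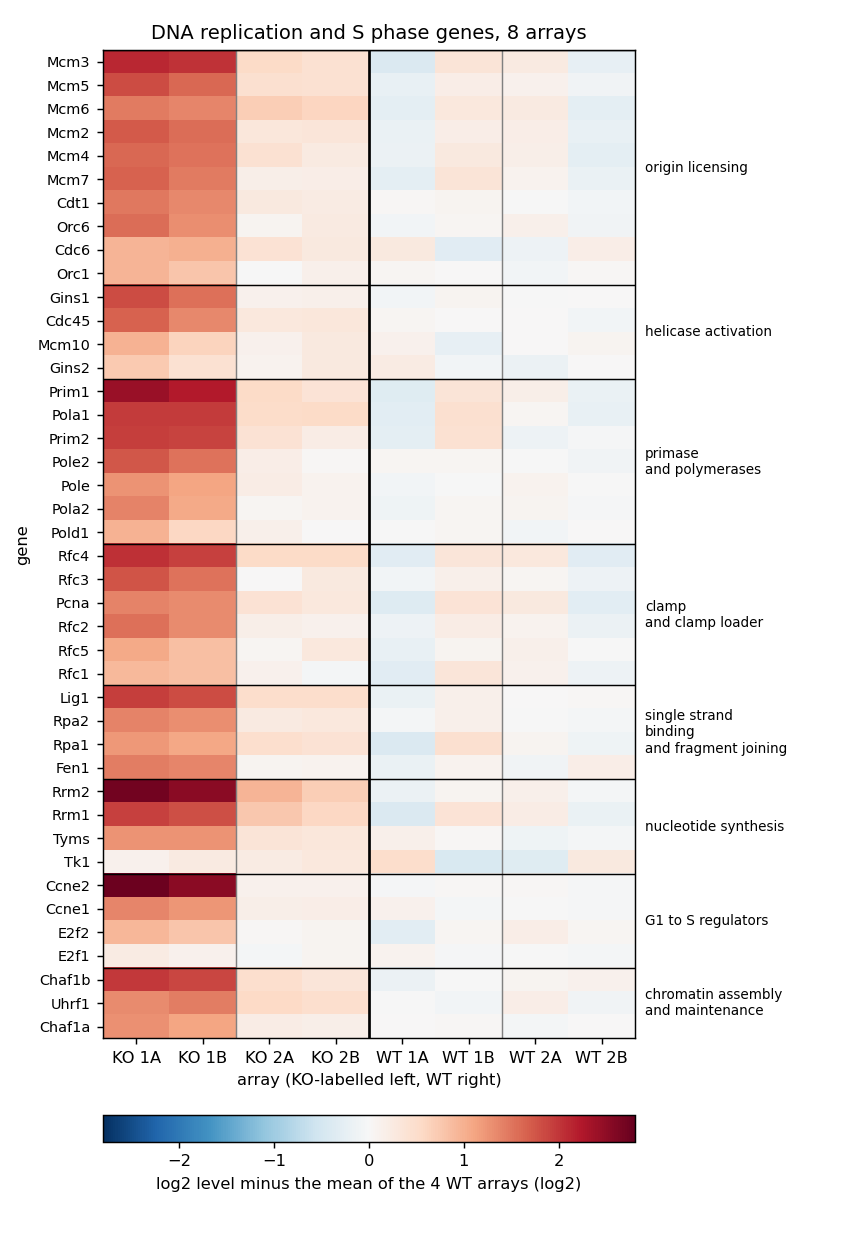
Heat map of the 42 genes (rows, grouped by role) in the 8 arrays (columns, KO-labelled left and WT right); colour is the log2 level minus the mean of the 4 WT arrays. KO 1A and KO 1B are red in nearly every row, with medians of 1.47 and 1.34, KO 2A and KO 2B are pale, with 0.24 and 0.27, and the WT arrays lie near 0.

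By array, the median gene was 1.47 over its WT mean in array KO 1A, 1.34 in KO 1B, 0.24 in KO 2A and 0.27 in KO 2B, and in the WT arrays it was -0.13 in 1A, 0.07 in 1B, 0.07 in 2A and -0.05 in 2B. Arrays A and B of each KO preparation were thus close to each other. In 41 of the 42 genes both KO 1 arrays exceeded the other 6 arrays, with Tk1 as the exception, and this was so for 32.9% of all genes. Both KO 2 arrays exceeded all 4 WT arrays in 20 of the 42, against 9.54% of all genes. The KO 2 mean exceeded the WT mean in all 42, where 56.7% of all genes did; after quantile normalization E2f1 was the exception, at -0.0249.

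KO 1 and KO 2 were compared in a limma fit of the 4 preparation means, whose error is the spread between arrays A and B. Of the 42 genes, 39 passed as higher in KO 1 than in KO 2 and 0 as lower, against 27.7% and 31% of all genes. Gins2, E2f1 and Tk1 did not pass. Ccne2 had the largest of these differences, 2.51 log2 (SE 0.13, adjusted p = 2.44e-06), though its KO 2 level was not shown to be above background. KO 1 was also fitted by limma with the 4 WT arrays, without KO 2 and with no block. There 40 of the 42 passed as higher and 0 as lower, against 30.1% and 37% of all genes. Tk1 and E2f1 did not pass. In the matching fit of KO 2 with the WT arrays, 1 of the 42 passed as higher and 0 as lower, against 0.642% and 0.0803% of all genes. That gene was Rrm2, at 0.82 log2 (SE 0.15, adjusted p = 0.0307). An unadjusted p under 0.05 was reached there by 13 of the 42 as higher and 0 as lower, against 5% and 1.42% of all genes.

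**Figure D2:**
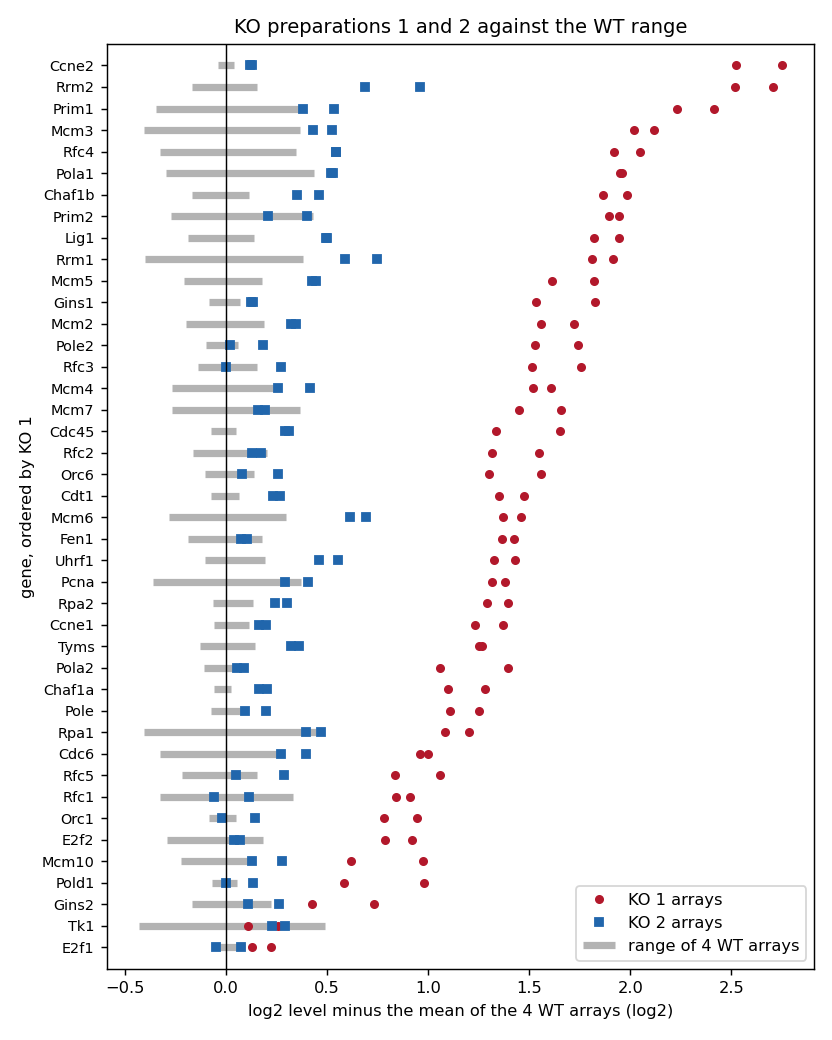
Each gene (rows, ordered by KO 1) in the KO 1 and KO 2 arrays as log2 level minus the mean of the 4 WT arrays (x axis); grey bars span the 4 WT arrays. Ccne2 and Rrm2 are farthest right in KO 1, at means of 2.64 and 2.61, and Tk1 is the gene whose KO 1 arrays lie inside the WT bar.

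Words of the E2F consensus were searched in promoter windows of the 42 genes, since E2F factors are textbook regulators of the set. RefSeq windows (build GRCm38.p6, 250 bases before to 50 after an annotated start) were used for 35 of the 42 genes, as 41 windows. The words TTTCCCGC, TTTCGCGC, TTTGCCGC and TTTGGCGC were taken on both strands, and matches could overlap. At least 1 word was found in 14 of the 35 genes (40%), against 3.48% of the 15613 genes on the array with a window and 5.56% of 36 genes of mitosis. Counting only starts at most 100 bases downstream of where the gene is annotated to begin, 8 of 29 genes held a word (27.6%), against 3% of all. The 14 genes were Orc1, Cdc6, Cdt1, Mcm3, Mcm5, Mcm6, Mcm7, Pola1, Pole2, Pold1, Rfc3, Lig1, E2f2 and Uhrf1. For Orc1, Lig1, Uhrf1, Cdc6, Pola1 and Mcm7 the window with a word belongs to a start well inside the gene. These starts lie 3749, 1651, 976, 442, 232 and 228 bases inside, in that order. The median KO minus WT difference was 0.88 log2 (range 0.43 to 1.27) in the 14 genes. It was 0.80 (range 0.09 to 1.72) in the 21 without a word, so the ranges overlapped. The 21 include E2f1, whose window belongs to a start 466 bases inside the gene. CCAAT, on either strand, was in 60% of the 35 genes, 41.7% of all and 72.2% of the 36 mitosis genes. The GC box GGGCGG was in 77.1%, 52.9% and 80.6%, so both were more frequent in the mitosis genes than in the 35. A match describes letters and does not show binding.

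The windows printed here are the 250 bases before the start, 5′ to 3′, with E2F words in capitals. Mcm5 (chr8:75109259-75109508, plus strand) and Mcm6 (chr1:128359706-128359955, minus strand) are shown because each holds a pair of words that overlap on opposite strands, and they were chosen after the search. The Mcm5 start lies 41 bases inside the gene.
Mcm5: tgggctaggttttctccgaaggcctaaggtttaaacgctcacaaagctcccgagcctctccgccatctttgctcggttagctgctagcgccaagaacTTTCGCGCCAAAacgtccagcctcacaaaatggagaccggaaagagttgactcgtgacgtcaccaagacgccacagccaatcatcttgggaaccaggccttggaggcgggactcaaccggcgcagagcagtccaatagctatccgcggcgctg
Mcm6: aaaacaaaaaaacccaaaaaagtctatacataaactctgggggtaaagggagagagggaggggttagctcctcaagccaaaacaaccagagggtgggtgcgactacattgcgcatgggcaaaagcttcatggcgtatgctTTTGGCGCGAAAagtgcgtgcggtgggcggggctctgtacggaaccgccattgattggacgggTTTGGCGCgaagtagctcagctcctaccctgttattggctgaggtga
Rrm2 (chr12:24708004-24708253, plus strand) and Prim1 (chr10:128014965-128015214, plus strand) are shown for the largest KO minus WT differences among genes with a window, and Tk1 (chr11:117826015-117826264, minus strand, start 73 bases inside the gene) for the second smallest. None of the 3 held a word.
Rrm2: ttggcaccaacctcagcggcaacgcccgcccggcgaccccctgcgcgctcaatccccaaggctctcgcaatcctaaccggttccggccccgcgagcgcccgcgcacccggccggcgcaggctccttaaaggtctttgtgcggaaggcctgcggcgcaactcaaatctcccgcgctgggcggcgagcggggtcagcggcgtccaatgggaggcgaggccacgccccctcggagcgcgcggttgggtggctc
Prim1: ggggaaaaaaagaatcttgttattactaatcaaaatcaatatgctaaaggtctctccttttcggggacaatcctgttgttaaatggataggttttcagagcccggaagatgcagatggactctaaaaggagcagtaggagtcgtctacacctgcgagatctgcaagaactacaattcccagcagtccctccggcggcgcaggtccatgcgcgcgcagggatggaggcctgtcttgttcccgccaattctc
Tk1: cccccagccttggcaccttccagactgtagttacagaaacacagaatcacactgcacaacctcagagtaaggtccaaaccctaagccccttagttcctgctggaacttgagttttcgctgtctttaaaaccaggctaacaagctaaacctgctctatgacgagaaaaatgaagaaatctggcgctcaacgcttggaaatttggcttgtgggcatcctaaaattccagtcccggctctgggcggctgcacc
E2f1 had the smallest difference, but its window belongs to a start 466 bases inside the gene and is not shown.

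**Figure D3:**
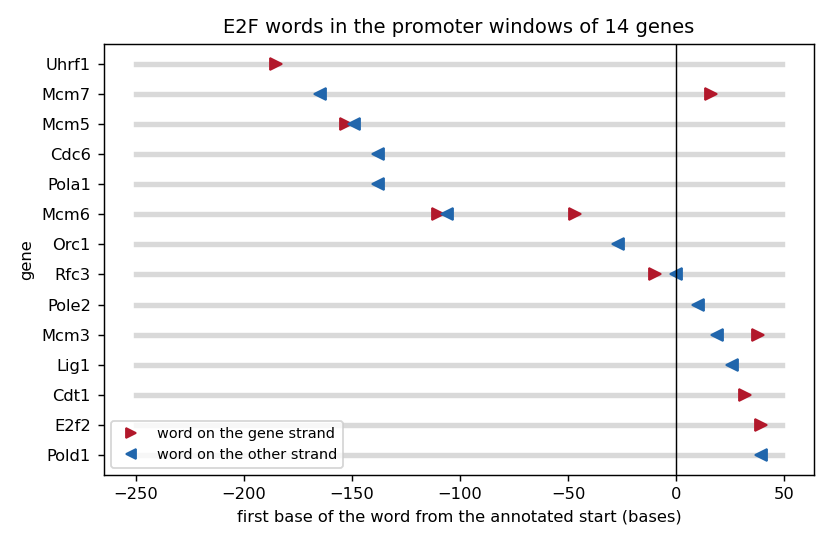
Place of each E2F word (x axis, bases from the annotated start) in the 14 genes that held one; the lines are the windows searched, and the strand of the word is marked. In Mcm5 and Mcm6 a pair of words overlaps on opposite strands, with first bases at -153 and -149 in Mcm5 and at -110 and -106 in Mcm6. The starts used for Orc1, Lig1, Uhrf1, Cdc6, Pola1 and Mcm7 lie more than 100 bases inside the gene.

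In what follows, levels are log2 values of 1 probe set and are not compared between genes. They are given in the order 1A, 1B, 2A, 2B within each genotype. Differences are log2 differences from the mean of the 4 WT arrays, and each SE and adjusted p is from limma over all genes. Of all genes, 5.65% reached an unadjusted p under 0.05 as higher, and 27.7% passed as higher in KO 1 than in KO 2. The dendritic cell markers were at 5.79 to 7.18 in the WT arrays. The WT means of Orc1, Gins1, Pola1, Prim2, Pole, Pole2, Tyms, E2f1 and Chaf1a lay in that range, and that of Ccne2 lay below it. The WT levels of these genes are thus not shown to be above background.

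The origin licensing genes, which form and load the helicase, stood high as a block in KO 1. All 10 differences were above 0, with a median of 0.91, which was 1.49 for KO 1 and 0.33 for KO 2. An unadjusted p under 0.05 was reached by 7, and all 10 were higher in KO 1 than in KO 2. Mcm5 (probe set 10572906), a subunit of the helicase ring, was at 10.65, 10.44, 9.27 and 9.25 in the KO-labelled arrays, against 8.62, 9.01, 8.95 and 8.73 in the WT arrays. No KO-labelled array overlapped with a WT array, and KO 1 was more than 1 log2 over the rest. The difference was 1.08 log2 (SE 0.37, adjusted p = 0.581). Mcm6 (probe set 10357436), another ring subunit, was at 11.54, 11.45, 10.77 and 10.69 in the KO-labelled arrays, against 9.80, 10.38, 10.33 and 9.82 in the WT arrays. It differed by 1.03 log2 (SE 0.37, adjusted p = 0.620), with 1.41 for KO 1 and 0.65 for KO 2, the largest KO 2 difference in this role. Mcm3 was at 10.64, 10.54, 9.04 and 8.95 in the KO-labelled arrays, against 8.11, 8.89, 8.78 and 8.29 in the WT arrays, and its difference of 1.27 was the largest of the role.

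The other ring subunits had KO 1 differences close to each other. Mcm2 was at 10.43, 10.26, 9.03 and 9.05 in the KO-labelled arrays, against 8.53, 8.89, 8.89 and 8.51 in the WT arrays. Mcm4 was at 10.08, 9.99, 8.89 and 8.73 in the KO-labelled arrays, against 8.30, 8.74, 8.63 and 8.20 in the WT arrays. Mcm7 was at 10.52, 10.32, 9.02 and 9.06 in the KO-labelled arrays, against 8.60, 9.23, 8.96 and 8.67 in the WT arrays. Both KO 2 arrays exceeded every WT array for Mcm2, while for Mcm4 and Mcm7 they overlapped with WT 1B. Differences were 1.64, 1.56 and 1.55 for KO 1 and 0.33, 0.34 and 0.18 for KO 2.

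Among the factors that load the ring, Cdt1, which brings Mcm to origins, was at 9.19, 9.07, 7.99 and 7.95 in the KO-labelled arrays, against 7.74, 7.78, 7.70 and 7.65 in the WT arrays. Its groups did not overlap. Cdc6, the ATPase that acts with it, was at 8.41, 8.45, 7.85 and 7.72 in the KO-labelled arrays, against 7.73, 7.13, 7.31 and 7.64 in the WT arrays, and the origin subunit Orc6 was at 9.22, 8.96, 7.74 and 7.92 in the KO-labelled arrays, against 7.57, 7.70, 7.80 and 7.56 in the WT arrays. For both, KO 2 overlapped with WT. Orc1 (probe set 10506822), an origin subunit whose level changes over the cell cycle in mammals, was at 7.07, 6.91, 6.10 and 6.27 in the KO-labelled arrays, against 6.18, 6.13, 6.04 and 6.15 in the WT arrays. Its KO 2 arrays overlapped with WT, and the difference of 0.46 log2 (SE 0.24, adjusted p = 0.701) had the largest p of the role.

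Helicase activation genes showed the same order of preparations. All 4 differences were above 0, with a median of 0.70, and 2 reached an unadjusted p under 0.05. The median for KO 2 was 0.19, and 3 of the 4 passed as higher in KO 1 than in KO 2. Cdc45 (probe set 10438378), which joins Mcm and GINS in the active helicase, was at 9.18, 8.86, 7.82 and 7.84 in the KO-labelled arrays, against 7.58, 7.53, 7.55 and 7.45 in the WT arrays. Its WT arrays lay within 0.13 of each other and all KO-labelled arrays exceeded them, with a difference of 0.90 log2 (SE 0.32, adjusted p = 0.640). Gins1 (probe set 10476989), a GINS subunit, was at 8.03, 7.75, 6.33 and 6.34 in the KO-labelled arrays, against 6.13, 6.28, 6.21 and 6.23 in the WT arrays. It was 1.55 log2 higher in KO 1 than in KO 2 (SE 0.15, limma adjusted p = 0.000106), while KO 2 lay 0.13 over WT; the difference over both was 0.90 log2 (SE 0.37, adjusted p = 0.701), or 0.1016 with the SD covariate.

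Gins2 (probe set 10582190), of the same complex, was at 8.49, 8.18, 7.87 and 8.02 in the KO-labelled arrays, against 7.98, 7.69, 7.59 and 7.78 in the WT arrays. Its KO 2 arrays overlapped with WT, and the difference was 0.38 log2 (SE 0.26, adjusted p = 0.701). KO 1 and KO 2 did not differ beyond the array spread at the threshold (0.39 log2, SE 0.18, limma adjusted p = 0.0714). Mcm10, which helps to start the helicase, was at 8.42, 8.06, 7.57 and 7.72 in the KO-labelled arrays, against 7.57, 7.22, 7.45 and 7.53 in the WT arrays, with KO 2 again overlapping WT.

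Primase and polymerase genes had the highest KO 1 median of the 8 roles. It was 1.64, against 0.15 for KO 2 and 0.87 over both. All 7 differences were above 0, 5 reached an unadjusted p under 0.05, and all 7 were higher in KO 1 than in KO 2. Prim1 (probe set 10367076), the catalytic subunit of primase, was at 9.83, 9.65, 7.95 and 7.80 in the KO-labelled arrays, against 7.07, 7.78, 7.57 and 7.24 in the WT arrays. The groups did not overlap, though KO 2B was nearly level with WT 1B. Prim1 differed by 1.39 log2 (SE 0.48, adjusted p = 0.597). Pola1 (probe set 10605674), the catalytic subunit of polymerase alpha, was at 8.60, 8.61, 7.17 and 7.18 in the KO-labelled arrays, against 6.36, 7.09, 6.72 and 6.45 in the WT arrays. All KO-labelled arrays exceeded all WT arrays, with a difference of 1.24 log2 (SE 0.41, adjusted p = 0.561).

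The remaining subunits overlapped between KO 2 and WT. Prim2, the large primase subunit, was at 8.71, 8.66, 7.16 and 6.98 in the KO-labelled arrays, against 6.50, 7.20, 6.63 and 6.74 in the WT arrays. Pola2, the second subunit of polymerase alpha, was at 9.01, 8.68, 7.67 and 7.71 in the KO-labelled arrays, against 7.51, 7.67, 7.70 and 7.59 in the WT arrays. For both, KO 1 was well over all other arrays. Pole, catalytic subunit of the leading strand polymerase epsilon, was at 8.37, 8.23, 7.32 and 7.21 in the KO-labelled arrays, against 7.04, 7.10, 7.22 and 7.11 in the WT arrays. Its partner Pole2 was at 8.46, 8.25, 6.90 and 6.74 in the KO-labelled arrays, against 6.78, 6.78, 6.70 and 6.62 in the WT arrays. KO 1 exceeded WT by 1.18 for Pole and 1.64 for Pole2. Pold1 (probe set 10562818), catalytic subunit of polymerase delta, was at 9.12, 8.73, 8.28 and 8.14 in the KO-labelled arrays, against 8.14, 8.20, 8.07 and 8.16 in the WT arrays. Its difference of 0.43 log2 (SE 0.28, adjusted p = 0.701) had the largest p of the role.

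Clamp and clamp loader genes differed among the WT arrays as well. All 6 differences were above 0 (median 0.82), 3 reached an unadjusted p under 0.05, and all 6 were higher in KO 1 than in KO 2. Medians were 1.39 for KO 1 and 0.16 for KO 2. Pcna, the sliding clamp, was at 11.61, 11.54, 10.63 and 10.52 in the KO-labelled arrays, against 9.86, 10.60, 10.50 and 9.93 in the WT arrays. Its KO 2 arrays were level with WT 1B and WT 2A and well over WT 1A and WT 2B. The second Pcna probe set gave a difference of 0.84, beside 0.85 for the set used. Rfc4 (probe set 10438690), a small subunit of the loader that opens the clamp, was at 9.98, 9.86, 8.48 and 8.48 in the KO-labelled arrays, against 7.61, 8.28, 8.24 and 7.61 in the WT arrays. The groups did not overlap, and Rfc4 differed by 1.27 log2 (SE 0.44, adjusted p = 0.607).

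Rfc3 (probe set 10535979), also a small loader subunit, was at 8.9963, 8.75, 7.24 and 7.51 in the KO-labelled arrays, against 7.16, 7.39, 7.30 and 7.10 in the WT arrays. Its difference was 0.89 log2 (SE 0.38, adjusted p = 0.701). Rfc2 was at 9.58, 9.35, 8.21 and 8.16 in the KO-labelled arrays, against 7.89, 8.24, 8.14 and 7.87 in the WT arrays. In these and the next subunits KO 2 overlapped with WT. Rfc5 was at 9.99, 9.77, 8.98 and 9.22 in the KO-labelled arrays, against 8.71, 9.0001, 9.08 and 8.93 in the WT arrays. Rfc1 (probe set 10530163), the large subunit, was at 9.01, 8.93, 8.21 and 8.03 in the KO-labelled arrays, against 7.77, 8.42, 8.22 and 7.96 in the WT arrays. It had the largest p of the role, with a difference of 0.45 log2 (SE 0.34, adjusted p = 0.701), whose sign turned to -0.0385 when the SD of the array values entered the fit.

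WT 1A and WT 2B were the lower pair of WT arrays in all 6 clamp and loader genes. They were the lower pair in 7 of the 10 licensing genes, in 22 of the 42 genes and in 29.3% of all genes. The opposite pair, WT 1B and WT 2A, was lower in 5 of the 42 genes and in 37.7% of all genes. Both splits cross the preparation numbers. The WT arrays spanned 0.74 log2 for Pcna, 0.78 for Rrm1 and 0.85 for Rpa1, which is more than the KO 2 excess of 0.35, 0.67 and 0.43. They spanned only 0.08 for Ccne2 and 0.08 for Chaf1a.

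Single strand binding and fragment joining genes were led by the ligase. All 4 differences were above 0 (median 0.80, with 1.37 for KO 1 and 0.35 for KO 2), 2 reached an unadjusted p under 0.05, and all 4 were higher in KO 1 than in KO 2. Lig1 (probe set 10550102), which seals Okazaki fragments, was at 10.25, 10.12, 8.80 and 8.80 in the KO-labelled arrays, against 8.11, 8.44, 8.30 and 8.34 in the WT arrays. Both KO preparations stood clear of WT, by 1.88 in KO 1 and 0.50 in KO 2. Its difference of 1.19 log2 (SE 0.36, adjusted p = 0.485) had the third smallest p of the 42. Rpa2 (probe set 10508759), a subunit of the protein that coats single strands, was at 9.62, 9.52, 8.47 and 8.53 in the KO-labelled arrays, against 8.16, 8.36, 8.21 and 8.17 in the WT arrays. The groups did not overlap, with a difference of 0.81 log2 (SE 0.31, adjusted p = 0.687). Rpa1, the large subunit, was at 10.01, 9.89, 9.27 and 9.20 in the KO-labelled arrays, against 8.40, 9.25, 8.88 and 8.69 in the WT arrays, where KO 2B was below WT 1B. Fen1 (probe set 10465912), the nuclease that trims fragment ends, was at 8.88, 8.82, 7.53 and 7.56 in the KO-labelled arrays, against 7.27, 7.55, 7.36 and 7.63 in the WT arrays. Its KO 2 arrays overlapped with WT, and it differed by 0.74 log2 (SE 0.35, adjusted p = 0.701).

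Nucleotide synthesis held the largest difference of the 42 and the second smallest. The median was 1.03, with 1.56 for KO 1 and 0.51 for KO 2. Rrm1, Rrm2 and Tyms reached an unadjusted p under 0.05 and were higher in KO 1 than in KO 2. Rrm2 (probe set 10394978), the subunit of ribonucleotide reductase made in S phase, was at 10.25, 10.06, 8.50 and 8.23 in the KO-labelled arrays, against 7.37, 7.61, 7.69 and 7.49 in the WT arrays. Both preparations exceeded every WT array, KO 1 by 6.12-fold and KO 2 by 1.77-fold over the WT mean. Over all KO-labelled arrays Rrm2 differed by 1.72 log2 (SE 0.43, adjusted p = 0.295), or 3.29-fold, with the smallest p of the 42. Rrm1 (probe set 10555695), the partner subunit, was at 10.87, 10.77, 9.71 and 9.55 in the KO-labelled arrays, against 8.56, 9.34, 9.17 and 8.77 in the WT arrays. It also showed no overlap and differed by 1.27 log2 (SE 0.42, adjusted p = 0.561). Tyms, thymidylate synthase, was at 8.21, 8.20, 7.31 and 7.26 in the KO-labelled arrays, against 7.09, 6.98, 6.81 and 6.90 in the WT arrays, again without overlap.

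Tk1 (probe set 10393431), thymidine kinase of the salvage route, did not follow the other genes. It was at 8.22, 8.37, 8.34 and 8.41 in the KO-labelled arrays, against 8.60, 7.69, 7.77 and 8.39 in the WT arrays. All KO-labelled arrays lay within the WT range, and WT 1A was the highest array of all. The difference was 0.22 log2 (SE 0.38, adjusted p = 0.763), and its sign turned after quantile normalization (-0.0040, with -0.2015 for KO 1). The second Tk1 probe set was at 8.88, 8.72, 7.92 and 8.14 in the KO-labelled arrays, against 7.89, 7.84, 7.93 and 7.94 in the WT arrays. There KO 1 exceeded all other arrays, so that the 2 probe sets disagree on KO 1, and which of them reads Tk1 was not tested.

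Among G1 to S regulators cyclin E2 stood far out in KO 1. The role had a median of 0.60, with 1.08 for KO 1 and 0.09 for KO 2. Of its 4 genes, 2 reached an unadjusted p under 0.05 and 3 passed as higher in KO 1 than in KO 2. Ccne2 (probe set 10503264), which activates the kinase that starts S phase, was at 7.9996, 7.77, 5.37 and 5.38 in the KO-labelled arrays, against 5.21, 5.29, 5.28 and 5.22 in the WT arrays. KO 1 was more than 2 log2 over all other arrays, while KO 2 exceeded the WT mean by 0.13. The KO 2 and WT levels were below the filter at log2 6 and near those of the NK cell markers (4.41 to 5.22 in KO-labelled and 4.61 to 5.31 in WT arrays), so they are not shown to be above background and no fold is given. The KO 1 difference was 2.64 on this scale, and the value over both preparations was 1.38 log2 (SE 0.52, adjusted p = 0.682), or 0.0951 with the SD covariate. Ccne1 (probe set 10562563), the other cyclin E, was at 9.31, 9.17, 8.10 and 8.13 in the KO-labelled arrays, against 8.05, 7.88, 7.91 and 7.90 in the WT arrays. Its groups did not overlap, with a difference of 0.74 log2 (SE 0.31, adjusted p = 0.701).

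The activating E2F factors were close to WT in KO 2. E2f2 was at 8.11, 7.98, 7.24 and 7.26 in the KO-labelled arrays, against 6.90, 7.26, 7.38 and 7.24 in the WT arrays. Its KO 2 arrays lay among the WT arrays. E2f1 (probe set 10488785) was at 7.25, 7.15, 6.98 and 7.10 in the KO-labelled arrays, against 7.12, 6.9982, 7.01 and 6.98 in the WT arrays. The groups overlapped, and its difference of 0.09 log2 (SE 0.20, adjusted p = 0.799) was the smallest of the 42.

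The chromatin genes exceeded every WT array in both KO preparations. All 3 reached an unadjusted p under 0.05 and were higher in KO 1 than in KO 2, with a median difference of 0.94, and of 1.38 for KO 1 and 0.41 for KO 2. Uhrf1 (probe set 10446074), which brings the methyltransferase Dnmt1 to newly copied DNA, was at 8.87, 8.97, 8.10 and 8.0020 in the KO-labelled arrays, against 7.54, 7.46, 7.73 and 7.44 in the WT arrays. The difference was 0.94 log2 (SE 0.28, adjusted p = 0.465), with 0.51 for KO 2. Chaf1b (probe set 10437040), a subunit of the histone chaperone CAF-1, was at 9.51, 9.38, 7.98 and 7.87 in the KO-labelled arrays, against 7.35, 7.51, 7.59 and 7.63 in the WT arrays. It differed by 1.17 log2 (SE 0.37, adjusted p = 0.514). Chaf1a (probe set 10446027), the large CAF-1 subunit, was at 8.22, 8.04, 7.14 and 7.10 in the KO-labelled arrays, against 6.96, 6.97, 6.88 and 6.96 in the WT arrays. The WT arrays were tightly grouped, and the difference was 0.69 log2 (SE 0.28, adjusted p = 0.701).

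Further genes of replication showed the same order of preparations at a lower height. Of 38 other genes of the replication machinery, 37 had a difference above 0. The median was 0.49, with 0.93 for KO 1 and 0.08 for KO 2. An unadjusted p under 0.05 was reached as higher by 9, against 5.65% of all genes, and 0 passed over all genes. The 3 with the smallest p were Clspn, the checkpoint adaptor claspin, at 0.87, Gmnn, the licensing inhibitor geminin, at 0.78, and Tipin, of the fork protection complex, at 1.51. Tipin had 2.37 for KO 1 and 0.65 for KO 2, with WT arrays that spanned 1.10. Recql4, a helicase with a role in replication initiation, was lowest at -0.0023.

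In the list of other nucleotide synthesis genes, 18 of 19 were above 0 (median 0.61, with 1.01 for KO 1 and 0.13 for KO 2) and 7 reached an unadjusted p under 0.05. It was led by Cmpk1, Dut and Ctps at 1.02, 0.99 and 0.83, and Samhd1, which breaks down deoxynucleotides, was at -0.19. All 18 genes of S phase checkpoint and repair were above 0 (median 0.69, with 1.14 for KO 1 and 0.17 for KO 2) and 8 reached that p, with Dtl at 1.12, the checkpoint kinase gene Chek1 at 1.07, Brca1 at 0.78 and Atrip at 0.02. In a list of E2F and RB family genes and their partners, 13 of 15 were above 0 and 3 reached that p. The median was 0.41, with 0.65 for KO 1 and 0.09 for KO 2. The 3 genes were the pocket protein gene Rbl2 at 0.88, with 1.03 for KO 1 and 0.72 for KO 2, E2f8 at 0.81 and Tfdp1 at 0.68. The partner gene Lin52 was at -0.16. All 11 genes in a list of other histone chaperones and related proteins were above 0, and 5 reached that p. Their median was 0.71, with 1.32 for KO 1 and 0.16 for KO 2. Hells, which is not a histone chaperone, was at 1.51, Asf1b at 1.21, Mms22l at 0.74 and Rbbp4 at 0.40. In these 4 lists 0 genes reached it as lower and 0 passed over all genes. Over all genes tested, 5.65% reached it as higher and 0.542% as lower, and 43.2% were above 0.

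Genes of mitosis and G2/M, the later part of the cycle, had a larger median KO 2 difference than the replication genes. All 41 measured were above 0, with a median of 0.97. An unadjusted p under 0.05 was reached as higher by 39, against 5.65% of all genes, and 0 passed over all genes. Their median was 1.56 for KO 1, beside 1.41 for the replication genes, and 0.48 for KO 2, beside 0.26. Both KO 2 arrays exceeded all WT arrays in 38 of the 41, beside 20 of the 42 and 9.54% of all genes. In the fit of KO 2 with WT alone 6 of the 41 passed as higher, beside 1 of the 42 and 0.642% of all genes. The difference between the lists was not tested. Top2a, the topoisomerase that separates copied strands, had the smallest p, at 2.39 for KO 1 and 1.16 for KO 2 (1.78 log2 over both, SE 0.36, limma adjusted p = 0.100). Mki67, the proliferation marker Ki-67, was at 1.86 and 0.87, the kinesin gene Kif4 at 2.0040 and 0.69, and the separase gene Espl1 was lowest, at 0.65 and 0.14. WT 1A and WT 2B were the lower WT pair in 12 of these 41 genes, beside 22 of the 42 replication genes and 27 of the 38 other replication genes.

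**Figure D4:**
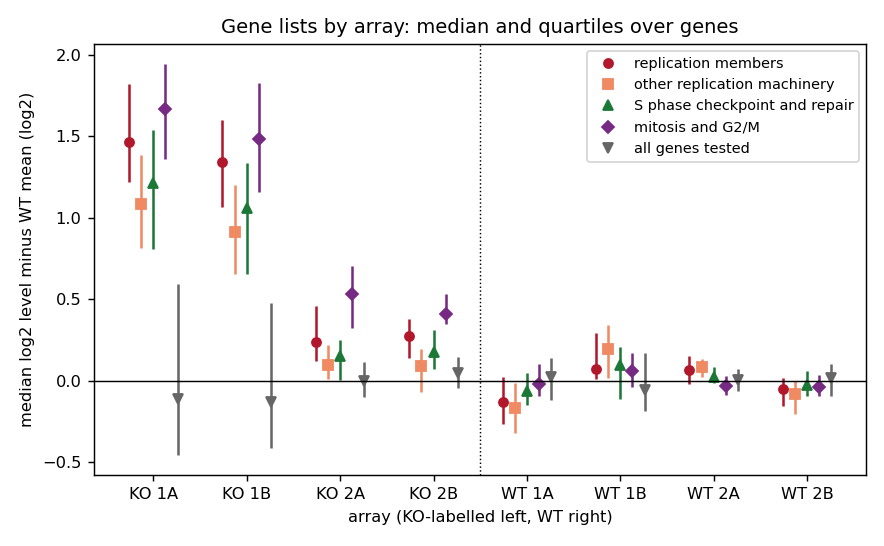
Median log2 level minus the WT mean (points) with quartiles over genes (lines) in each of the 8 arrays, for the 42 replication genes, 3 other lists and all genes tested. The replication genes are at 1.47 and 1.34 in KO 1 and at 0.24 and 0.27 in KO 2, where the mitosis genes are at 0.53 and 0.41.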

How the data were processed

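RNA of sorted, stimulated Tregs (100 ng of total RNA) was labelled by the whole-transcript method of Affymetrix, per the labels' protocols. The authors deposited log2 values per probe set. The submitters' processing notes name RMA and Partek, without versions; filters were not stated. RMA as commonly run subtracts background and equalises arrays, yet the arrays differed in spread, which can widen differences of whole gene sets. The table of 28768 probe sets was used with no further normalization, and 0 columns of sample values were left unused. The platform annotation, which can be old, gave 21771 probe sets 1 symbol, 1557 several and 5440 none, and 0 symbols were updated through gene identifiers (RefSeq, GRCm38.p6). Precision is limited by the number of arrays.

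Groups came from the sample titles. The test between genotypes was that of limma (version 3.58.1, R 4.3.3, variance trend, two-sided, Benjamini-Hochberg over 19937 genes at 0.05), the labelled preparation being a random block (correlation 0.617). That estimate was -0.63 without KO 1 and -0.64 without KO 2, so the report gives fits of a single KO preparation with no block. With the SD of the array values as covariate the estimate was -0.37. The block was kept there, so the p-values of that fit may be too small. KO 1 and KO 2 were compared in a fit of the 4 preparation means. The fits were tested on simulated data. The 42 genes and all lists were chosen with earlier results of these data known. Full statistics are given for the 2 smallest and the largest p of each role; of other lists, the 3 smallest p and the lowest difference are named. The alternatives were other blocks, array weights, no variance trend, quantile normalization, median centring, the SD of the array values as covariate, other probe set choices, a filter at log2 6, and left-out arrays or preparations. A block of crossed letters was added after seeing the data.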

Additional observations from a re-analysis of the deposited data

Results flagged for a closer look

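Of the 84 groups of 4 values (42 genes, KO-labelled and WT arrays), 1 had a single array far from the other 3, where chance gives about 1 in 20. For Chaf1a, WT 2A was at 6.88 and the other WT arrays at 6.96 to 6.97, a gap of 0.887 of the range. The KO-labelled arrays were at 7.10 to 8.22, so all of them exceeded every WT array with or without WT 2A. A pair of high arrays, such as those of KO 1, cannot stand out by this measure.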

How the results depend on the processing

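The count of 0 replication genes that passed over all genes became 14 with the preparation number as a replicate block, 13 with the SD covariate, 15 without KO preparation 1 (1 with no random block) and 41 without KO preparation 2 (40 with no random block). It stayed 0 under the other alternatives run, single left-out arrays included. The SD covariate fit kept the random block at a correlation of -0.37 and was not run without it. Its p-values may thus be too small. Of all 19937 genes, in either direction, 27 passed in the main fit, 677 with the number block and 2488 with the SD covariate. Without KO preparation 1, 1465 of all genes passed (144 with no random block). Without KO preparation 2, 16900 of all genes passed (13378 with no random block). With the SD covariate the median KO minus WT difference was 0.2298 in place of 0.84, 41 genes in place of 42 were above 0 and 22 in place of 27 had an unadjusted p under 0.05. The 27 genes at an unadjusted p under 0.05 became 13 without KO preparation 1 and 40 without KO preparation 2, each with no block. Of all genes, 997 and 6256 reached it as higher in those fits. With the random block, the 27 became 10 without WT preparation 1 and 2 without WT preparation 2. They became 21 to 34 when single arrays were left out. The 39 genes that passed as higher in KO 1 than in KO 2 became 29 to 40 when single arrays were left out. The median KO 1 difference of 1.41 was 1.05 after quantile normalization and 1.66 after median centring. The median KO 2 difference of 0.26 was 0.21 and 0.22 under these, 0.23 with either other choice of probe sets, and 0.22 to 0.27 with single arrays left out. The sign turned for Rfc1 (-0.0385, SD covariate) and for Tk1 (-0.0040, quantile normalization); by preparation, quantile normalization turned Tk1 in KO 1 (-0.2015) and E2f1 in KO 2 (-0.0249). The causes were not tested. The labels do not say that equal numbers pair samples. With only 2 numbers, the deviations of KO 1 and WT 1 correlated at 0.416 over genes, and those of letter A at -0.242; a block of crossed letters left 0 of the 42 passing.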
